A study of Rattus norvegicus with 63 samples.

Results

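Oxidative phosphorylation genes encode the subunits of the 5 protein complexes with which mitochondria make ATP. Members were all probe sets of the main array type that carry 1 gene symbol beginning with Nduf, Uqcr, Sdh followed by a to d, Cox4 to Cox8 or Atp5, or the symbol Cycs or Cyc1, with the assembly factors (Ndufaf) left out. A probe set is a group of short probes for one transcript. This gave 85 probe sets of 80 genes, of 15923 probe sets and 10411 named genes on the array. They divide into 35 probe sets of complex I, 5 of complex II, 8 of complex III, 18 of complex IV and 19 of complex V. For Cycs, Cox7a2, Atp5mc1 and Atp5mc2 no probe set with a single symbol was used, and 1 member, Cox6c-ps1, has the symbol of a pseudogene, so its signal may be shared with Cox6c.

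Total RNA came from the kidneys of rats, either untreated (0 h) or collected once methylprednisolone had been injected, with 16 times between 0.25 and 72 h. Methylprednisolone is a drug that acts on the glucocorticoid receptor. There were 52 libraries on the main array type (4 untreated, 3 for every later time) and 10 on a second array type (4 untreated, 3 for 2 h and 3 for 6 h). The labels give no dose, strain, age or hour of day, untreated rats were sampled at 0 h alone, and whether each numbered sample was its own animal is not stated, which means that the p-values rest on a spread that could be technical.

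Complexes I, III and IV pass electrons from NADH to oxygen and pump protons out of the mitochondrial matrix, complex II feeds in electrons from succinate, and complex V, the ATP synthase, lets the protons return and makes ATP. The subunits measured here are all encoded in the nucleus, many under shared transcription factors, among them NRF1, GABP and the estrogen-related receptors. In the kidney the proximal tubule and the thick ascending limb, which reabsorb most of the filtered salt, are rich in mitochondria and depend on this pathway.

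The tissue matched its label. Markers of proximal tubule (Slc34a1, mean signal 4075, and Lrp2, 2347) and of thick limb (Umod, 3053) were bright. Signals are intensities scaled per array, and a probe set was tested when its mean log2 level reached the 40th percentile, a signal of 52.3. Of the 85 member probe sets, 77 passed: all 35 of complex I, 5 of 5 of complex II, 8 of 8 of complex III, 13 of 18 of complex IV and 16 of 19 of complex V. The 8 probe sets below that floor included the heart and skeletal muscle isoforms Cox6a2 (mean signal 12.9), Cox7a1 (20.9) and Cox8b (5.77). The others were the testis isoform Cox6b2 (7.46), the complex IV paralog Ndufa4l2 (37.2), a pair of the probe sets for the ATP synthase inhibitor Atp5if1 and 1 probe set for Atp5me. Of 10 striated muscle markers 1 reached the floor, Ckm at 76.7, and its difference at 5 to 8 h was 0.12 ± 0.17 from 0 h.

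No member passed the test against 0 h in any of 5 windows of time. Differences are on the log2(signal + 7.55) scale, with limma's standard error after ±, and were called at a Benjamini-Hochberg adjusted p under 0.05 over all 9520 probe sets tested. Of the 77 members, 0 were called at 0.25 to 1 h, where 0.662% of all probe sets were, and 0 at 2 to 4 h, where 9.96% were. Likewise 0 members were called at 5 to 8 h (9.71% of all probe sets), at 12 to 18 h (0.389%) and at 30 to 72 h (0.0%). At an unadjusted p under 0.05 limma gave 1, 11, 6, 2 and 4 members in the 5 windows, in order of time. With array weights, which let less typical arrays count for less, 13 members were lower at 2 to 4 h. The share of all probe sets is not given for that cut or for that setting. These counts therefore do not show whether members differed more often than other probe sets.

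The differences were mostly below 0 in the early windows and above 0 in the late ones, though at 0.5 h alone 32 of 77 were below 0. Differences were below 0 for 65, 66 and 61 of the 77 members in the first 3 windows (84.4%, 85.7% and 79.2%), against 56.8%, 59.7% and 56.5% of all probe sets. In the last 2 windows they were below 0 for 23 and 14 members (29.9% and 18.2%), against 52.9% and 51.9% of all. Median differences of the members were -0.09, -0.13, -0.08, 0.05 and 0.07, beside -0.03, -0.07, -0.03, -0.01 and -0.01 for all probe sets. Ribosomal protein genes, another group of bright and widely expressed genes, had medians of 0.08, 0.10, 0.10, 0.04 and 0.11 over 40 probe sets. All windows share the 4 libraries at 0 h, and the medians depended on 1 of them. Without 0 h replicate 1 the members' median was -0.03 at 0.25 to 1 h and -0.03 at 5 to 8 h, the same as that of all probe sets, and at 2 to 4 h it was -0.08 beside -0.07. At 12 to 18 h and 30 to 72 h it was then 0.09 and 0.12, and at 12 to 18 h it was 0.0089 without 18 h replicate 3.

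**Figure D1:**
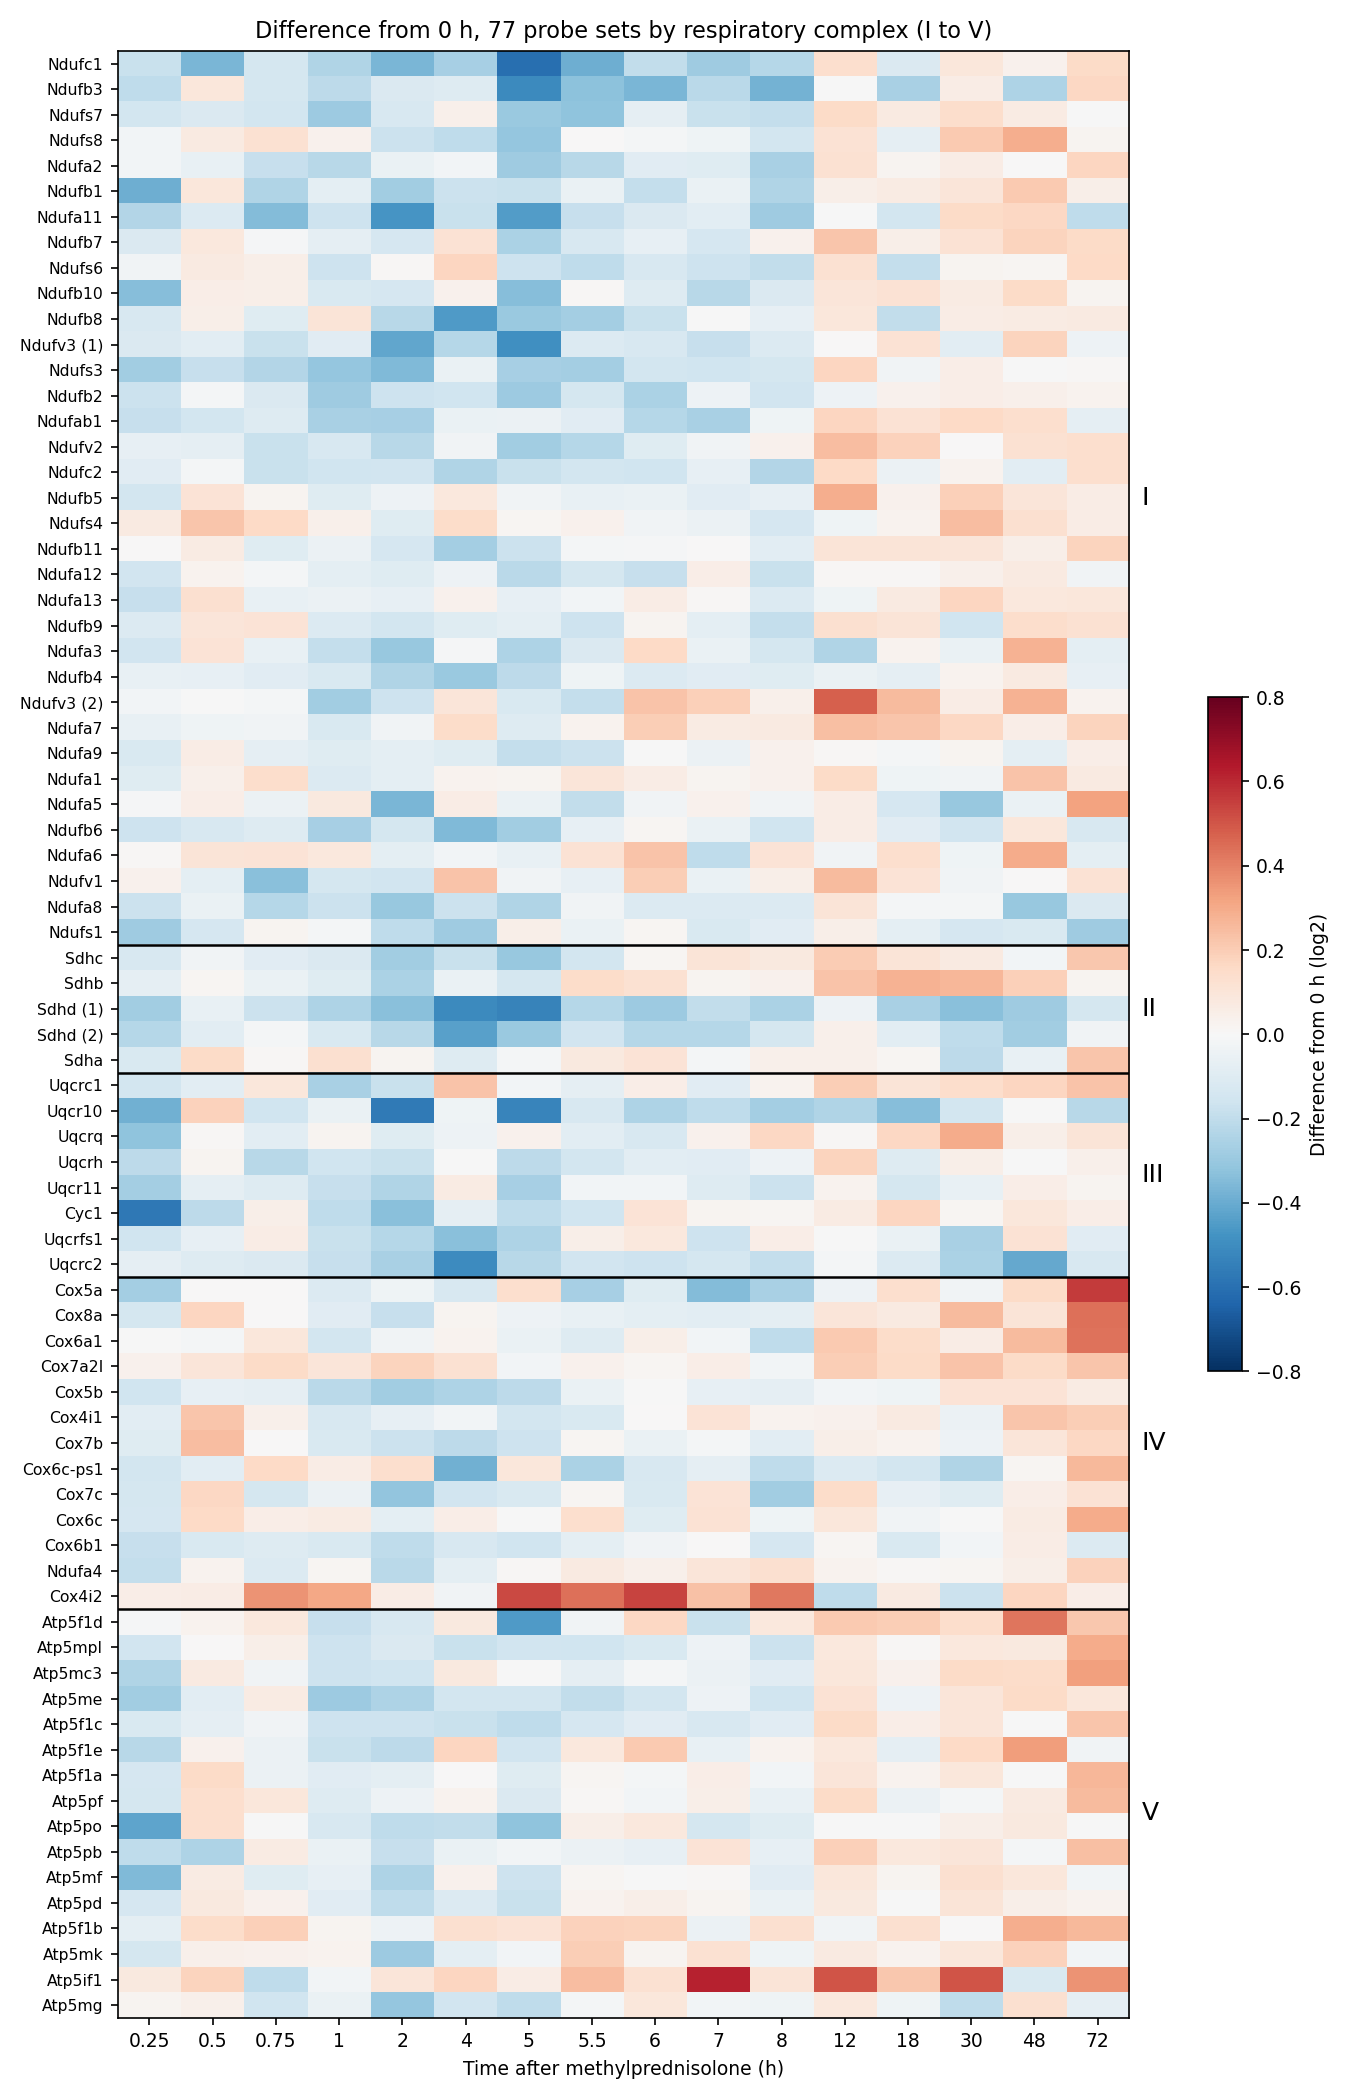
Heat map of the difference from 0 h (log2, colour) of 77 probe sets (rows, grouped by complex I to V and ordered within each by the difference between 5 to 8 h and 30 to 72 h) at 16 times (columns, h). Blue squares are in the majority at each time to 8 h other than 0.5 h, where 32 of 77 differences are below 0, and red squares from 12 h on, while Cox4i2 is red at 5 to 8 h.

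The differences were small. The 95% interval of the difference lay within 1.5-fold in either direction for 77 of 77 members at 0.25 to 1 h, 71 at 2 to 4 h, 73 at 5 to 8 h, 75 at 12 to 18 h and 75 at 30 to 72 h. The member closest to the threshold in any window was Ndufb4, an accessory subunit of complex I. Its 4 libraries at 0 h had signals of 1613, 1380, 1525 and 1261, and the 6 libraries of 2 to 4 h ranged from 1106 to 1271 with a median of 1191. All but the highest of those 6 lay below the whole 0 h group, and the difference of -0.27 ± 0.09 had an adjusted p of 0.054 (limma).

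Over the 17 times the members had a smaller median range than all probe sets and a larger one than the ribosomal protein genes. The range between the highest and lowest of the 17 time means had a median of 0.47 for the members (1.39-fold), 0.65 for all probe sets (1.57-fold) and 0.36 for the ribosomal protein genes. The spread between libraries of 1 time was also smaller, with a median SD of 0.20 for members and 0.26 for all probe sets. Members were brighter too, with a median mean log2 level of 10.19 beside 7.30, and the ranges were not adjusted for level or spread. Of the 77 members, 14 had their lowest time mean at 0.25 h and 11 at 4 h, while 2 h and 5 h each had 16. The highest time mean belonged to 12 h in 13 members and to 30 h in 8, while 48 h and 72 h each had 19.

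Tested over all 16 differences from 0 h at once (limma's F test), 2 of 77 members were called, beside 16.1% of all probe sets. At an unadjusted p under 0.05 the F test gave 13 members, a count without the share of all probe sets beside it. The 2 called were Atp5f1d, the delta subunit in the stalk of the ATP synthase (adjusted p = 0.00695, limma), and Ndufa11, an accessory subunit in the membrane arm of complex I (adjusted p = 0.0484). Atp5f1d was called under all 10 alternatives tried. Ndufa11 was called under 4 of 10, with adjusted p-values from 0.0042 to 0.356, and in 16 of 52 fits that each left out 1 library.

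At single times 4 differences from 0 h were called, all below 0 and all at 2 or 5 h, where 4.12% and 6.25% of all probe sets were called. Uqcr10, a small subunit of complex III, had signals of 2614, 1893, 1897 and 1999 at 0 h, while the 2 h libraries had 1352, 1082 and 1896 and the 5 h libraries 1846, 1296 and 1249. All 3 libraries at 5 h lay below all 4 at 0 h, while 1 of the 3 at 2 h fell just inside the 0 h range, whose highest value, in replicate 1, stood apart from the other 3. Uqcr10 fell by 0.56 ± 0.17 at 2 h (adjusted p = 0.0409, limma) and by 0.53 ± 0.17 at 5 h (adjusted p = 0.0457). Ndufc1, an accessory subunit of complex I, had 1099, 873, 1054 and 923 at 0 h and 712, 525 and 714 at 5 h. These groups did not overlap, and Ndufc1 fell by 0.61 ± 0.17 (adjusted p = 0.0271, limma). Atp5f1d had 1088, 1307, 1089 and 1336 at 0 h and 835, 809 and 987 at 5 h, again without overlap, and fell by 0.45 ± 0.14 (adjusted p = 0.0449).

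Each of these 4 calls was lost when a single library of its time was left out, an alternative chosen after the data were seen. Without 5 h replicate 2, which stood apart from the other libraries, the adjusted p-values at 5 h were 0.259 for Ndufc1, 0.254 for Uqcr10 and 0.227 for Atp5f1d (limma). Without 2 h replicate 2 Uqcr10 had -0.38 at 2 h (adjusted p = 0.319). In 2 h replicate 2 the summed signals of 6 adipose and 5 liver markers were 1124 and 1324, the highest of all 52 libraries, beside next highest sums of 647 and 318; their part in the result was not tested. Array weights ended all 3 calls at 5 h, with adjusted p-values of 0.163 (Ndufc1), 0.189 (Uqcr10) and 0.0895 (Atp5f1d), and median centring ended those of Uqcr10 at 2 h (0.0659) and 5 h (0.0738) and of Atp5f1d (0.0623). Over all members the number of single-time calls was 1 when replicate 1 or 3 of 0 h or replicate 1 of 2 h was left out and 2 when replicate 2 of 0 h was. It was 8 on leaving out replicate 1 of 5 h and 10 on leaving out replicate 3 of 7 h. Array weights gave 25 such calls, though without the 3 at 5 h named above, quantile normalization 11 and median centring 1. The share of all probe sets is not given for these settings.

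The 5 h values of replicate 1 are means of arrays a and b. In array a the signal of Gapdh at its 3′ end was 47.5 times that at its 5′ end, and that of actin 27.9 times, while in array b these ratios were 1.34 and 2.09. Over the 52 arrays other than array a they ranged from 0.976 to 1.78 and from 1.14 to 2.82. With array b alone, an alternative chosen after these ratios were seen, 8 rather than 4 single-time differences were called, the F test called 5 members rather than 2, and Atp5f1d at 5 h was no longer called (-0.41, adjusted p = 0.0723, limma).

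The comparison of 5 to 8 h with 30 to 72 h leaves out the 0 h libraries and sets 15 libraries against 9. Here 24 of 77 members were called (31.2%), beside 26.2% of all probe sets, so the share called was near the background. The direction was uneven: 23 members (29.9%) were lower at 5 to 8 h and 1 was higher, where 13.8% of all probe sets were lower and 12.5% higher. The median difference of the members was -0.13, beside -0.03 for all probe sets and -0.03 for the ribosomal protein genes, of which 0 of 40 were lower and 1 was higher (6 had an unadjusted p under 0.05). Of the 77 members 70 had a difference below 0 (90.9%, against 55.8% of all probe sets).

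**Figure D2:**
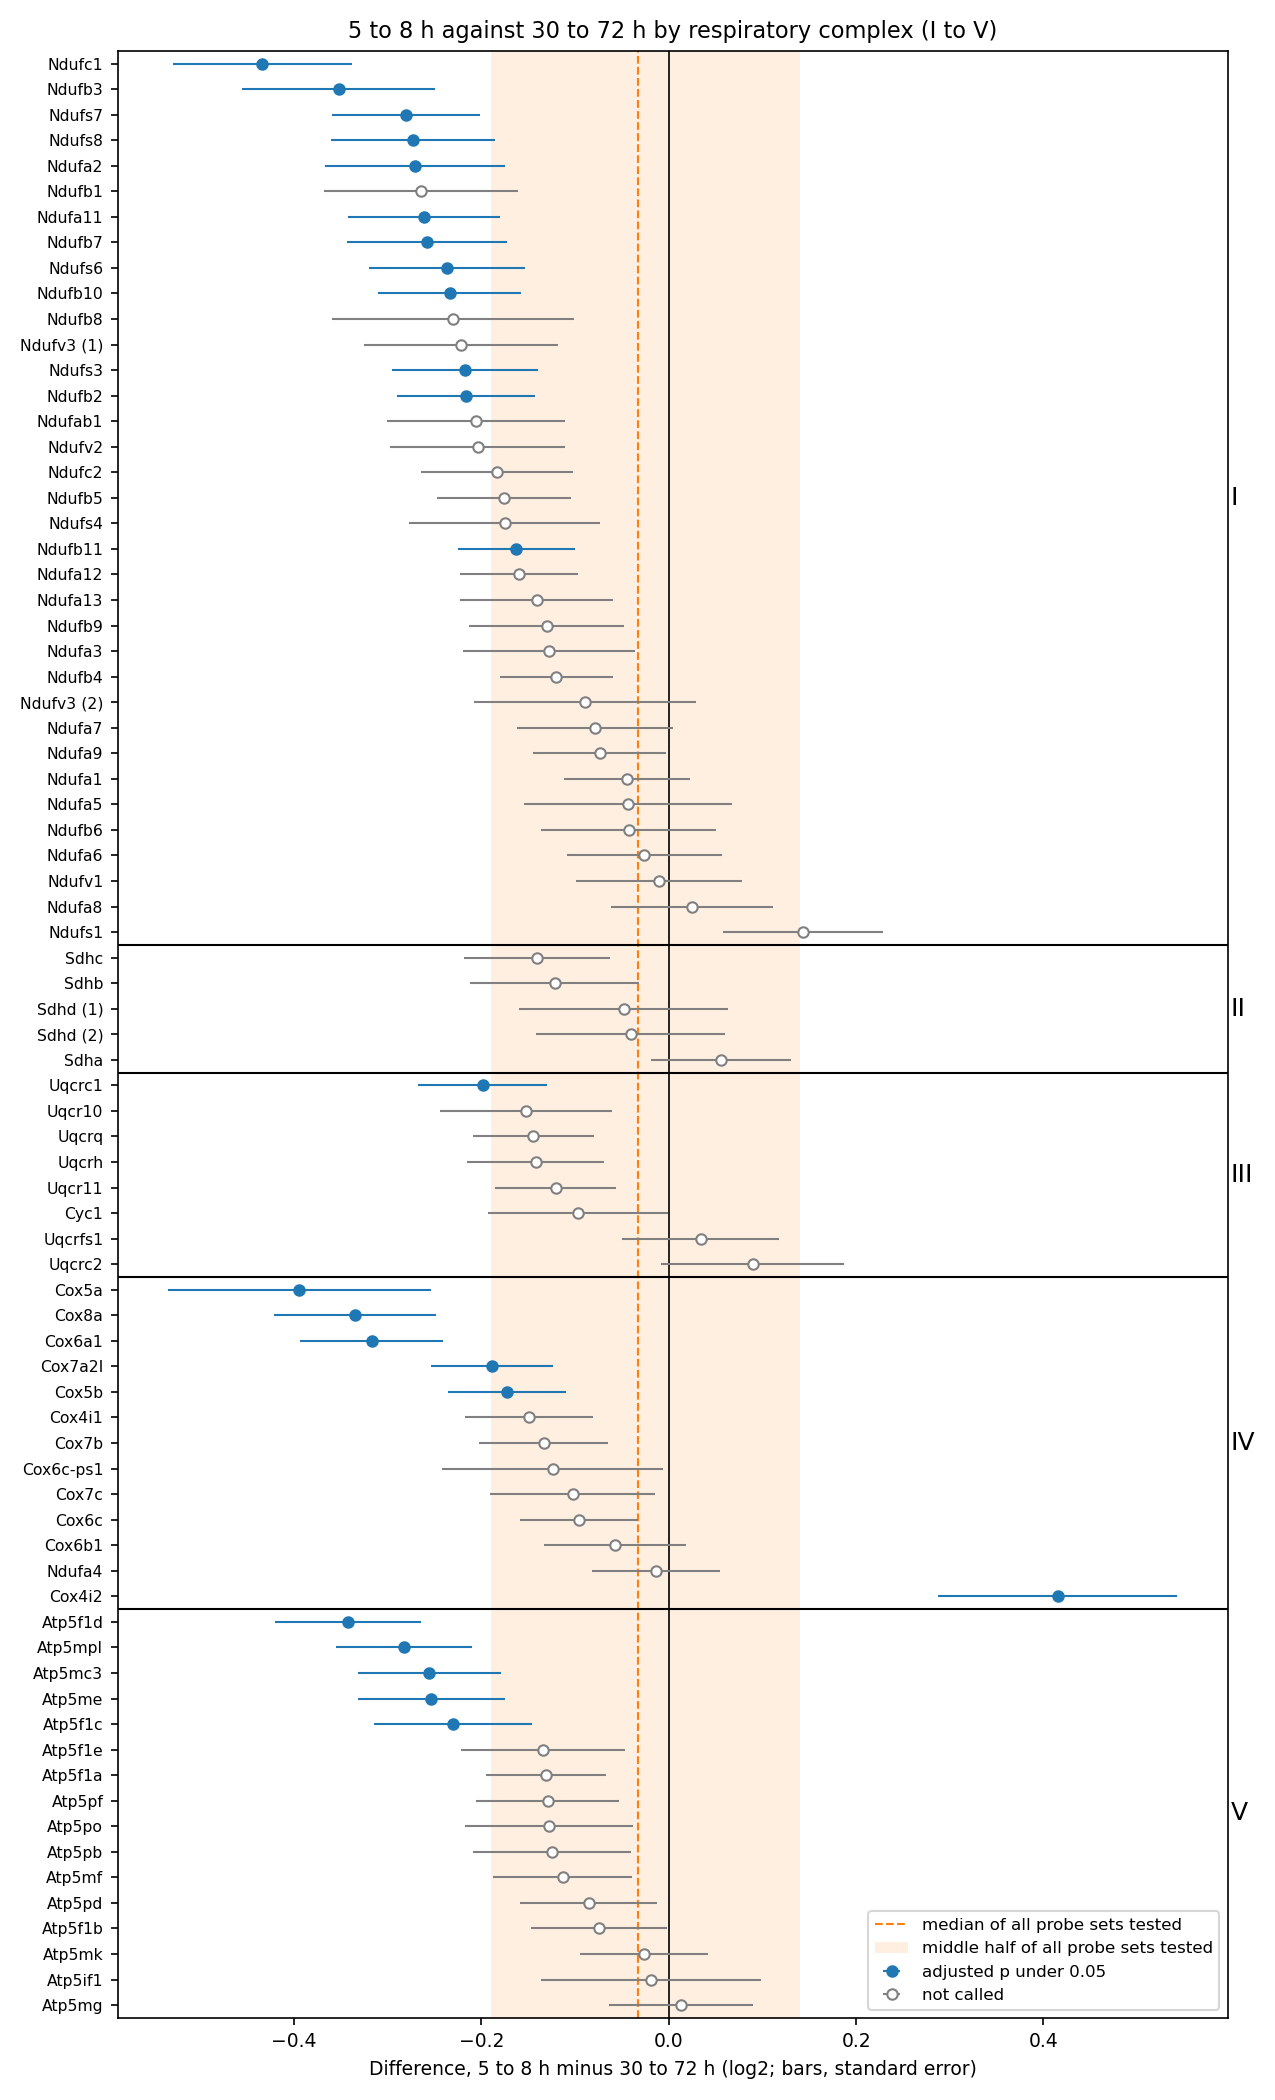
Difference between 5 to 8 h and 30 to 72 h (log2, x axis; bars, limma's standard error) for 77 probe sets grouped by complex. Filled points had an adjusted p under 0.05, and the band and dashed line show the quartiles and median of all 9520 probe sets; 23 filled points lie left of 0 and 1, Cox4i2, lies to the right.

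In complex I, 12 of 35 probe sets were lower at 5 to 8 h, with a median difference of -0.18 over the complex. Among them were the iron-sulfur core subunits Ndufs7 and Ndufs8 with the core subunit Ndufs3, the accessory subunits Ndufa2, Ndufa11, Ndufc1 and Ndufs6, and Ndufb2, Ndufb3, Ndufb7, Ndufb10 and Ndufb11 of the membrane arm. Ndufc1 ranged from 525 to 1073 in the 15 libraries of 5 to 8 h (median 714) and from 853 to 1365 in the 9 of 30 to 72 h (median 1032). Of the earlier libraries 14 lay below the later median and 8 below the lowest later value, and the difference was -0.43 ± 0.10 (adjusted p = 0.000666, limma). Ndufs7 ranged from 508 to 832 (median 668) and from 714 to 977 (median 809). For Ndufs7 11 of 15 earlier libraries were below every later one, with a difference of -0.28 ± 0.08 (adjusted p = 0.00714, limma).

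Ndufb3 ranged from 873 to 1566 with a median of 1239 at 5 to 8 h and from 1046 to 1988 with a median of 1585 at 30 to 72 h. All 15 earlier libraries lay below the later median, but only 3 below the lowest later library (-0.35 ± 0.10, adjusted p = 0.00938, limma). Ndufa11 ranged from 520 to 924 (median 734) and from 631 to 1040 (median 896), and its difference was -0.26 ± 0.08 (adjusted p = 0.0148). The 8 other called members of complex I differed by between -0.27 (Ndufs8) and -0.16 (Ndufb11, adjusted p = 0.0494). Other core subunits were not called, among them Ndufs1 (0.14 ± 0.09, adjusted p = 0.217) and Ndufv1, which holds the flavin that takes electrons from NADH (-0.01 ± 0.09, adjusted p = 0.950). Ndufab1, the mitochondrial acyl carrier protein, had -0.21 ± 0.10 (adjusted p = 0.105). Ndufa1, a small membrane-arm subunit, had -0.04 ± 0.07.

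No member of complex II, succinate dehydrogenase, was called. Its flavoprotein Sdha had a difference of 0.06 ± 0.07 and its iron-sulfur subunit Sdhb of -0.12 ± 0.09. Of the membrane anchors, Sdhc had -0.14 ± 0.08 (adjusted p = 0.186, limma), and the probe sets of Sdhd gave -0.05 ± 0.11 and -0.04 ± 0.10. Against 0 h the same Sdhd probe sets had -0.30 ± 0.15 and -0.21 ± 0.14 at 5 to 8 h, with adjusted p-values of 0.223 and 0.386. Levels of Sdhd were spread widely at those times: the first probe set ranged from 680 to 1568 at 5 to 8 h and from 950 to 1277 at 30 to 72 h, so the later libraries lay inside the earlier range.

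In complex III, 1 of 8 members was lower: Uqcrc1, a core subunit that faces the matrix, ranged from 1307 to 1748 (median 1474) and later from 1391 to 2100 (median 1644). The difference was -0.20 ± 0.07 (adjusted p = 0.0297, limma), and 14 of 15 earlier libraries lay below the later median. Uqcrc2, its partner, had 0.09 ± 0.10 (adjusted p = 0.535) and Uqcrfs1, the Rieske iron-sulfur protein, 0.03 ± 0.08. Cyc1, cytochrome c1, had -0.10 ± 0.10 (adjusted p = 0.489). The small subunits Uqcrq and Uqcr10 had -0.14 ± 0.06 and -0.15 ± 0.09, with adjusted p-values of 0.096 and 0.223.

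In complex IV, cytochrome c oxidase, 5 of 13 members were lower and 1 was higher at 5 to 8 h. Cox6a1, the form of this subunit found outside muscle, ranged from 1447 to 2212 with a median of 1658 at 5 to 8 h and from 1797 to 2939 with a median of 1937 at 30 to 72 h. Of the earlier libraries 10 of 15 were below every later one, and the difference was -0.32 ± 0.08 (adjusted p = 0.00172, limma). Cox8a ranged from 2814 to 3760 (median 3272) and from 3170 to 6234 (median 4131), so that all 15 earlier libraries lay below the later median (-0.34 ± 0.09, adjusted p = 0.00334). The other lower members were Cox5a (-0.39 ± 0.14, adjusted p = 0.0333), Cox5b (-0.17 ± 0.06, adjusted p = 0.0392) and Cox7a2l, which links complexes III and IV (-0.19 ± 0.07, adjusted p = 0.0281).

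Cox4i2 moved the other way. It is the alternative form of subunit 4, known for its rise in low oxygen and its presence in lung and vascular cells. Its signals were near the floor of the test: 77.7, 45.4, 97.1 and 59.4 at 0 h, from 71.4 to 120 with a median of 96.6 at 5 to 8 h, and from 54.0 to 93.3 with a median of 65.6 at 30 to 72 h. All 15 libraries of 5 to 8 h lay above the later median, although the groups overlapped, and the difference was 0.42 ± 0.13 (adjusted p = 0.0137, limma). Against 0 h its difference at 5 to 8 h was 0.43 ± 0.17, which was not called (adjusted p = 0.111). The usual form, Cox4i1, ranged from 2286 to 3435 and from 2197 to 3692 and had -0.15 ± 0.07 (adjusted p = 0.102). The other members of complex IV had differences of -0.13 ± 0.07 (Cox7b), -0.10 ± 0.06 (Cox6c), -0.10 ± 0.09 (Cox7c), -0.12 ± 0.12 (Cox6c-ps1), -0.06 ± 0.08 (Cox6b1) and -0.01 ± 0.07 (Ndufa4, a subunit once assigned to complex I), and none of these was called.

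In complex V, 5 of 16 members were lower at 5 to 8 h. Atp5f1d ranged from 809 to 1463 with a median of 1174, and from 1148 to 1810 with a median of 1425 at 30 to 72 h. Of its earlier libraries 13 of 15 were below the later median and 7 below every later value, for a difference of -0.34 ± 0.08 (adjusted p = 0.000944, limma). Atp5mpl, a small membrane subunit, ranged from 777 to 1104 (median 867) and from 903 to 1331 (median 1007), with 11 of 15 earlier libraries below every later one (-0.28 ± 0.07, adjusted p = 0.00311). Atp5mc3, which forms the proton-carrying ring, differed by -0.26 ± 0.08 (adjusted p = 0.011), Atp5me by -0.25 ± 0.08 (adjusted p = 0.0144) and Atp5f1c, the turning gamma shaft, by -0.23 ± 0.08 (adjusted p = 0.0389).

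The catalytic subunits of the synthase were not called: Atp5f1a had -0.13 ± 0.06 (adjusted p = 0.126, limma) and Atp5f1b -0.07 ± 0.07 (adjusted p = 0.484). Atp5if1, the inhibitor that stops the synthase from running backward, had -0.02 ± 0.12 by its bright probe set. That probe set was not called in any window, and its libraries ranged from 337 to 691 at 5 to 8 h and from 333 to 693 at 30 to 72 h. The ranges were almost the same.

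**Figure D3:**
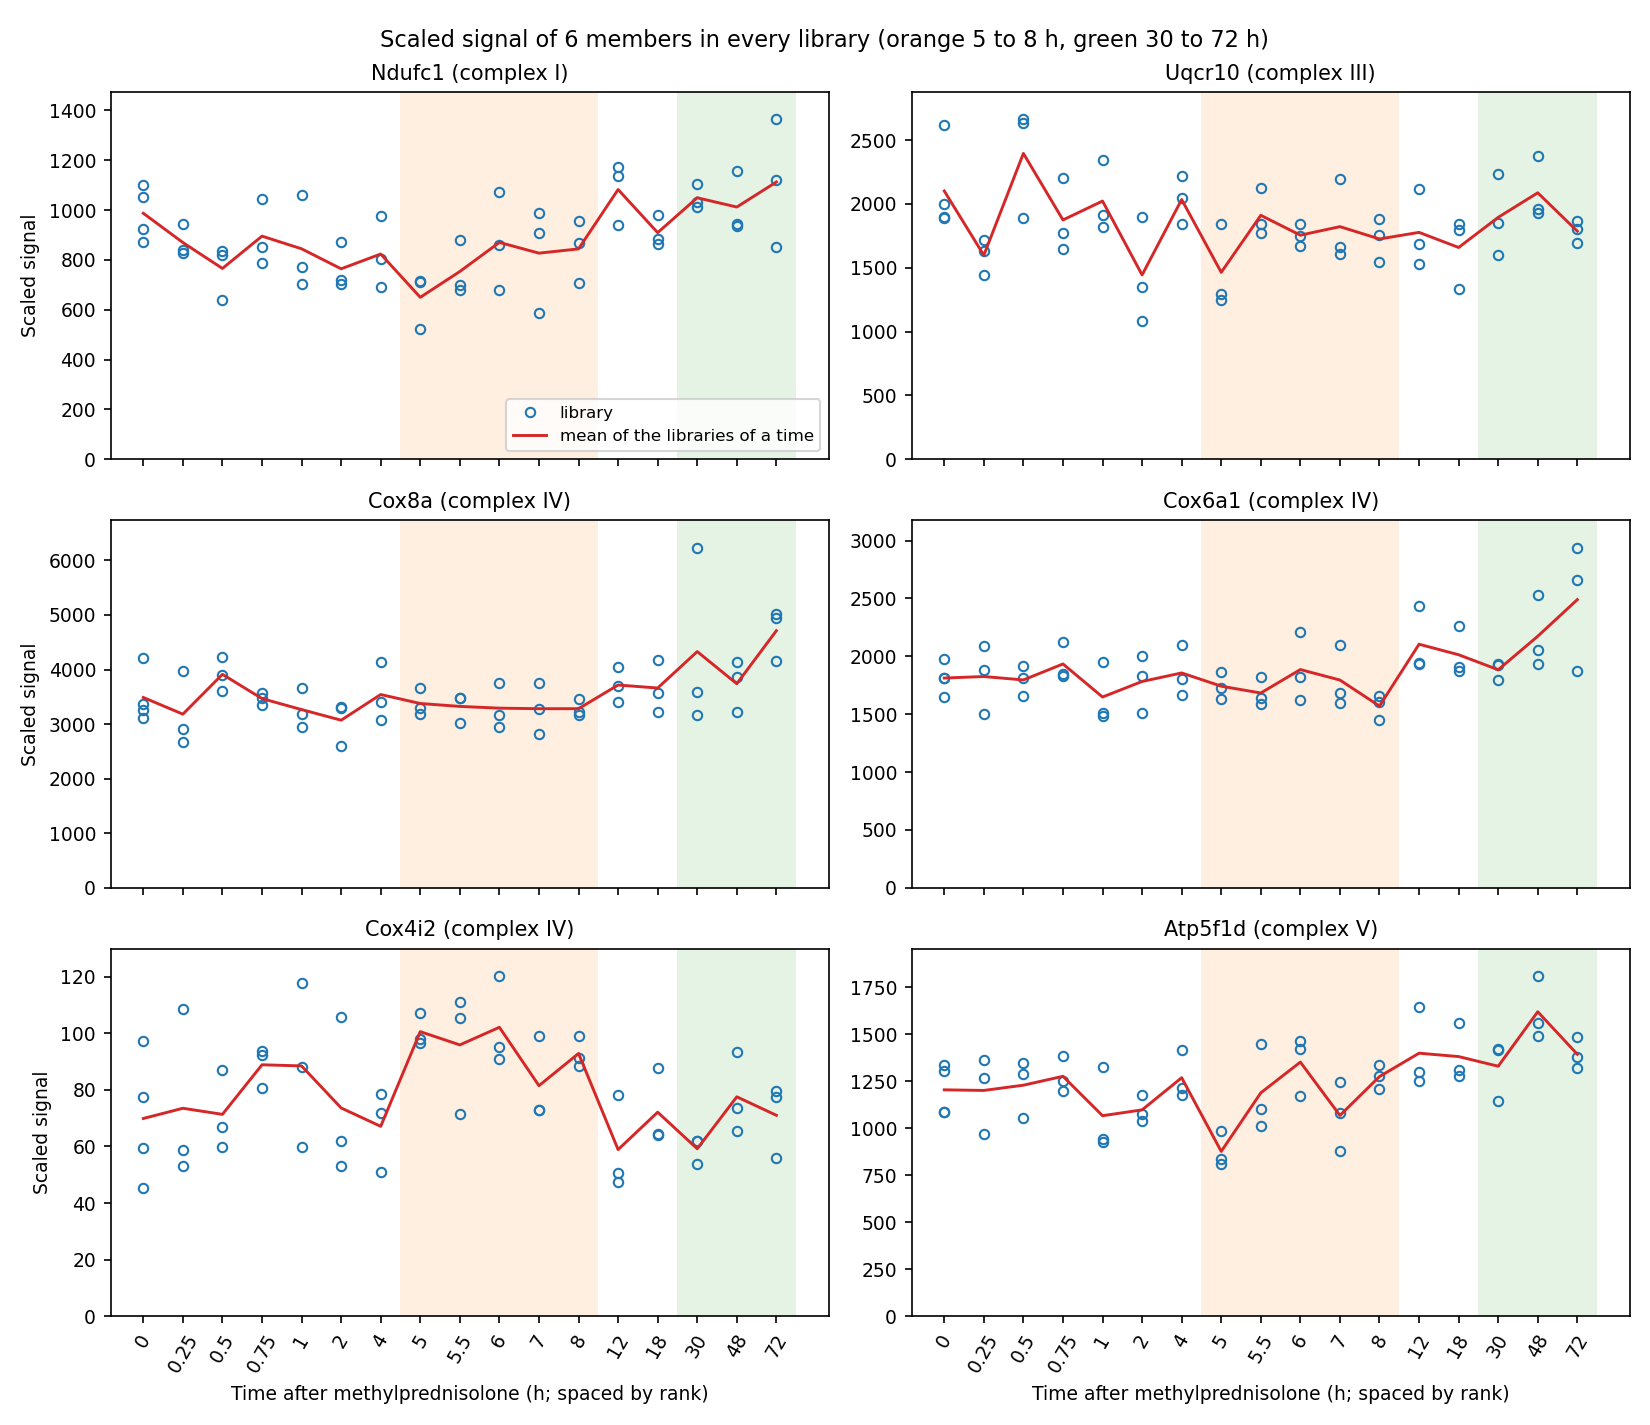
Scaled signal (y axes, linear from 0) of 6 members in each of 52 libraries (points) against time (h, spaced by rank), with the mean of each time as a line. Ndufc1 and Atp5f1d are lowest at 5 h, Cox6a1 and Cox8a are highest at 72 h, and Cox4i2 lies higher at 5 to 8 h than at 30 to 72 h.

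The count of 23 lower members depended on which libraries were kept. It was 10 when 48 h replicate 2 was left out and 14 when 30 h replicate 2 was. It was 4 without both 72 h replicates 2 and 3, whose titles carry the array letter c while the title of 72 h replicate 1 carries a; this last alternative was chosen after the data were seen. Those 4 were Ndufc1, Ndufs7, Ndufa11 and Atp5f1d. Without all arrays of letter b or c, which leaves 5 h replicate 1 to its array a, 2 members were lower (Ndufa11 and Atp5f1d) beside 6.81% of all probe sets. The median difference of the members kept its sign in each of these, at -0.11, -0.15, -0.12 and -0.11. Without the 3 libraries whose median correlation with all other libraries, of any time, was lowest (4 h replicate 2, 5 h replicate 2 and 7 h replicate 3) 12 members were lower. Cox4i2, Atp5f1d and Ndufa11 were called in this comparison under all 11 alternatives and without any single library. The share of all probe sets that were lower also fell without letter b and c arrays, to 6.81% from 13.8% in the main fit. For the other settings that share is not given, so whether the members' calls fell more than those of all probe sets is not shown.

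The members moved together from library to library. The level of a complex in a library was taken as the median, over its members, of the log2 level minus the member's mean over all 52 libraries. Over all members this median ran from -0.26 in 5 h replicate 2 (0.835-fold) to 0.28 in 48 h replicate 2 (1.22-fold), and its SD between libraries of the same time was 0.12. It lay above 0 in all 9 libraries of 30 to 72 h (0.02 to 0.28) and below 0 in 5 of 6 libraries of 2 to 4 h and 7 of 15 of 5 to 8 h. The libraries of 7 h alone, at -0.21, 0.0024 and 0.22, covered most of the range of the whole series.

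**Figure D4:**
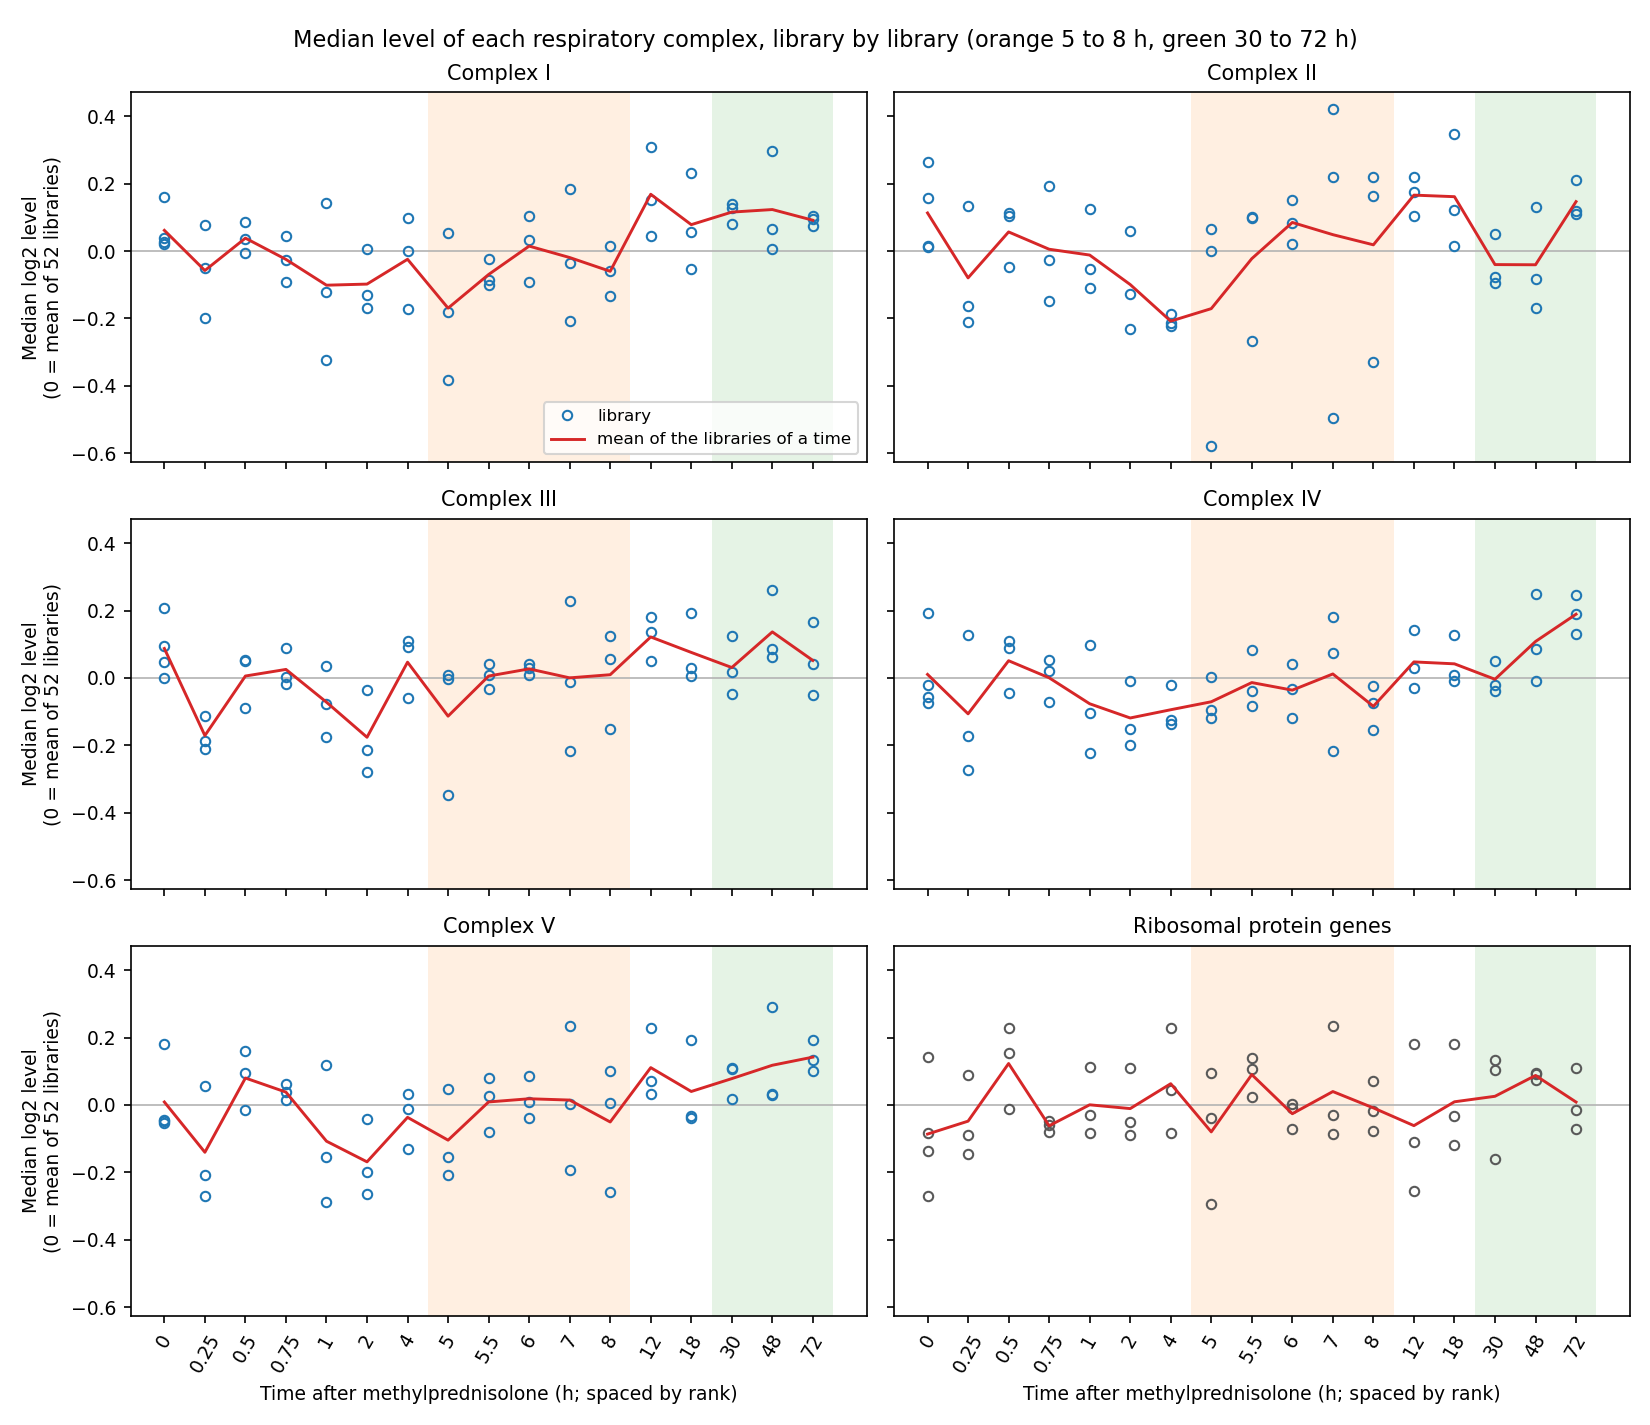
Median log2 level of the members of each complex, and of 40 ribosomal protein probe sets, in each of 52 libraries (points; 0 is the mean over libraries) against time (h, spaced by rank), with the mean of each time as a line. Libraries of a time spread over a range as wide as the line's own course, and the 9 libraries of 30 to 72 h lie above 0 for complex I.

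Across the 52 libraries, which share scaling and array type, the medians of the 5 complexes correlated pairwise with Pearson's r between 0.624 (II with IV) and 0.88 (IV with V). The median of all members correlated with that of the ribosomal protein genes with r = 0.251, with that of all probe sets with r = 0.182 and with the 3′ to 5′ ratio of Gapdh with r = 0.0371. That last r rests largely on 5 h replicate 1, whose ratio was 7.97 beside a median of 1.18, so it cannot show whether levels follow RNA quality. By window the median ratio was highest at 2 to 4 h (1.37), where the members' median level was lowest (-0.09), and a link between them was not tested. Between single members the median r over 2926 pairs was 0.378, and 93.1% of pairs were above 0. It was 0.399 within a complex and 0.371 between complexes, 0.0808 between a member and a ribosomal protein probe set, and 0.00558 among all probe sets. Ribosomal protein probe sets correlated among themselves about as much as the members did (0.40, with 91.7% of 780 pairs above 0), so such shared movement was not particular to the members. After each time's mean was subtracted the median r among members was 0.359, little less than before, and among ribosomal protein probe sets 0.45. Against the median of the other members, Atp5f1c (r = 0.837), Ndufb2 (0.824), Ndufs3 (0.805) and Cox5b (0.80) were most alike, and Cox4i2 (-0.108), Cox6c-ps1 (-0.0468) and Cox5a (0.0982) least.

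Markers of kidney cell types moved with the members. The summed signal of 8 proximal tubule markers ranged from 15543 to 23189 at 5 to 8 h and from 19145 to 25309 at 30 to 72 h, with its highest values in 72 h replicates 3 and 2, and its log2 correlated with the member median with r = 0.732 over 52 libraries. Of these 8 genes 4 were lower at 5 to 8 h than at 30 to 72 h (Slc22a6, Slc34a1, Slc5a2 and Lrp2) and 1, Cubn, was higher. Summed signals of 4 thick limb markers (1504 to 4520, later 3745 to 5571; r = 0.597), 7 distal and collecting duct markers (1870 to 4041, later 3295 to 5622; r = 0.567) and 4 podocyte markers (428 to 734, later 857 to 1072; r = 0.482) behaved likewise. Those of 8 macrophage and neutrophil markers (541 to 2049, later 631 to 1316) had r = -0.524, and those of 6 adipose markers (137 to 647, later 117 to 188), none of which reached the floor of the test, had r = -0.475. For endothelial, red blood cell, striated muscle, adrenal and liver markers r was 0.484, -0.0394, -0.0339, 0.0568 and -0.227. The part of these cell types in the members' differences was not tested, and in whole tissue fewer cells of a type and less RNA per cell cannot be told apart.

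Promoters of the members were read from RefSeq's table for the assembly GRCr8, where 66 of the 75 tested genes had one; each window holds 250 bases before and 50 after the start. Short motifs were searched on both strands: CGCNTGCGC for NRF1, CCGGAAG for GABPA, ATGGCGG for YY1, AAGGTCA for the estrogen-related receptor (ERRA) and the palindromic element of the glucocorticoid receptor, NR3C1. The NRF1 motif is close to its own complement, so matches on opposite strands can overlap. It was found in 17 of 66 members (25.8%) and in 5.8% of all 33469 promoters in the table. The GABPA motif was found in 20 (30.3%, against 8.75%), the YY1 motif in 16 (24.2%, against 4.8%) and the ERRA motif in 11 (16.7%, against 4.61%). At least 1 of these 4 was present in 42 members (63.6%, against 20.8%), and the NR3C1 motif in 0 of 66, with 0.439% of all promoters holding it. Each member was counted by its first promoter in the table, while the comparison took every entry, whether or not its gene was tested here. Members were therefore not compared with other genes of like level.

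Among the 22 members lower at 5 to 8 h that had a promoter in the table, 9 held the NRF1 motif (40.9%), 6 GABPA (27.3%), 4 YY1 (18.2%) and 5 ERRA (22.7%). Among the 44 other tested members these were 8 (18.2%), 14 (31.8%), 12 (27.3%) and 6 (13.6%). A match describes letters only, not binding, and matches by chance are included. To show what these promoters look like, the 100 bases before the start are given for 6 of the lower members with matches there, chosen after the matches were seen. They are written 5′ to 3′ on the gene's strand, with matched motifs in capitals.
Ndufa11, GRCr8 chr9:1637514-1637613, + strand: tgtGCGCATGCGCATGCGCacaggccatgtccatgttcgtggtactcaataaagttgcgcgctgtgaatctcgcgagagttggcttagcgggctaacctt
Uqcrc1, GRCr8 chr8:118468123-118468222, + strand: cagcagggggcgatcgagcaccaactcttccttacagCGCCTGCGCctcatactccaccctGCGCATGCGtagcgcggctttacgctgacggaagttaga
Cox8a, GRCr8 chr1:213833624-213833723, - strand: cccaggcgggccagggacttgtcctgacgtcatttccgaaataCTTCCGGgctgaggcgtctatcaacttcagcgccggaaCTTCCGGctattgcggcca
Atp5me, GRCr8 chr14:1464760-1464859, + strand: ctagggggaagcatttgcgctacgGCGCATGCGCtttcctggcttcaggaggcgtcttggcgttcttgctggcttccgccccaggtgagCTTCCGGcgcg
Atp5mpl, GRCr8 chr6:136845641-136845740, - strand: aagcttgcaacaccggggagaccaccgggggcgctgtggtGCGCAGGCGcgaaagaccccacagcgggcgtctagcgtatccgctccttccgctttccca
Atp5mc3, GRCr8 chr3:79220665-79220764, - strand: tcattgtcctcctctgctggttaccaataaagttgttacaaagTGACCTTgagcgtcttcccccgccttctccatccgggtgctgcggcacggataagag
Capitals mark NRF1 matches in Ndufa11, Uqcrc1, Atp5mpl and the first run of Atp5me, GABPA matches in Cox8a and the second run of Atp5me, and an ERRA match in Atp5mc3. Cox8a holds a pair of GABPA matches and Uqcrc1 a pair of NRF1 matches, while in Ndufa11 NRF1 matches overlap in one run. The tested members with no promoter in the table include Cox6a1.

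Other genes that serve the pathway were followed in lists. Of 9 regulators of mitochondrial biogenesis that were tested, Polg, the mitochondrial DNA polymerase, was higher at 5 to 8 h than at 0 h (0.48 ± 0.10, adjusted p = 0.000447, limma) and than at 30 to 72 h (0.32 ± 0.07, adjusted p = 0.000919). Gabpb1, a subunit of GABP, was lower at 5 to 8 h than at 30 to 72 h (-0.24 ± 0.09, adjusted p = 0.0367). Tfam, which packs and transcribes mitochondrial DNA, had 0.03 ± 0.07 and Esrra, the estrogen-related receptor alpha, -0.38 ± 0.15 (adjusted p = 0.0562). Ppargc1a, the coactivator PGC-1 alpha, was below the floor at a mean signal of 19.2.

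Of 9 carriers and uncouplers, Vdac1, the pore of the outer membrane (-0.34 ± 0.08, adjusted p = 0.00194, limma), and Slc25a3, the phosphate carrier that supplies the synthase (-0.27 ± 0.08, adjusted p = 0.00693), were lower at 5 to 8 h than at 30 to 72 h. Ucp2, an uncoupling protein, was higher at 5 to 8 h than at 0 h (0.77 ± 0.21, adjusted p = 0.0149). Of 27 assembly factors 3 were lower than at 30 to 72 h, where 13.8% of all probe sets were, namely Uqcc2 of complex III (-0.43 ± 0.09), Cox19 of complex IV (-0.34 ± 0.09) and Ndufaf8 of complex I (-0.29 ± 0.09). Ndufaf4, a complex I assembly factor, was higher (0.57 ± 0.09, adjusted p = 9.89e-06, limma). The citrate cycle makes the NADH and succinate that the chain uses, and its list here includes genes of pyruvate dehydrogenase, which feeds the cycle. None of 15 genes of that list was called in either comparison (limma), and Cs, citrate synthase, had -0.02 ± 0.09 against 30 to 72 h. Over all times Dlst of that list was called by the F test (adjusted p = 0.00754), and the regulator Ppard was higher at 12 to 18 h than at 0 h (0.84 ± 0.17, adjusted p = 0.0102). On the second array type at 2 h, 10 genes of the citrate cycle list were tested. Pdhx, of pyruvate dehydrogenase (-1.02 ± 0.25, adjusted p = 0.03, limma), and Idh3g (-0.78 ± 0.19, adjusted p = 0.0243) were lower. So were Esrra (-1.23 ± 0.33, adjusted p = 0.0357) and Uqcc2 (-1.08 ± 0.23, adjusted p = 0.0169).

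The second array type holds 98 member probe sets of 54 genes, of which 87 were tested. At 2 h 5 were called, beside 9.8% of all probe sets: 3 higher and 2 lower than at 0 h. One probe set of Cox8a had signals of 3384, 4415, 2790 and 3299 at 0 h and 5232, 8659 and 5526 at 2 h. These groups did not overlap, and it rose by 0.88 ± 0.20 (adjusted p = 0.0211, limma). The other 3 probe sets of Cox8a gave 0.65 ± 0.21, 0.44 ± 0.18 and 0.18 ± 0.18 and were not called. One probe set each of Cox4i1 (0.87 ± 0.21, adjusted p = 0.0286) and Ndufs8 (1.03 ± 0.28, adjusted p = 0.0388) was also higher, and the other probe sets of both genes lay above 0 without being called. Cox8a, Cox4i1 and Ndufs8 were not called at 2 h on the main type. Its median signals are given for 2 and 4 h together, not for 2 h alone. At 0 h and at 2 to 4 h they were 3314 and 3309 for Cox8a, 2784 and 2770 for Cox4i1 and 502 and 442 for Ndufs8.

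The lower ones were the single probe set of Atp5f1a that was tested (-0.68 ± 0.17, adjusted p = 0.0315, limma) and 1 of 3 of Uqcrfs1 (-1.15 ± 0.33, adjusted p = 0.0487). Uqcrfs1 had 674, 403, 793 and 800 at 0 h and 413, 166 and 348 at 2 h by that probe set. The groups overlapped slightly, and the other probe sets of Uqcrfs1 gave 0.17 ± 0.22 and 0.22 ± 0.15. On the main type neither gene was called at 2 h. Median signals there at 0 h and over 2 and 4 h together were 3028 and 3087 for Atp5f1a and 2347 and 1861 for Uqcrfs1. Of 25 genes with several tested probe sets, 6 had probe sets of opposite sign at 2 h and 7 at 6 h. Of the 5 called probe sets, the highest values of Cox8a, Cox4i1 and Ndufs8 and the lowest of Uqcrfs1 and Atp5f1a were all in 2 h replicate 2, which stood apart from the other libraries. Without it 1 member was higher and 0 were lower at 2 h (limma), beside 4.44% and 3.03% of all probe sets. In the main fit 4.82% of all probe sets were higher and 4.98% lower. With 0 h replicate 3 left out instead, 0 were called in either direction, where 2.86% of all probe sets were higher and 1.75% lower. The same held without 0 h replicate 4, where 2.69% were higher and 1.75% lower. Without 2 h replicate 3, 6 were called in each direction, beside 5.45% higher and 8.66% lower. Without the filter on dim probe sets, Cox4i1 (adjusted p = 0.0526), Ndufs8 (0.0515) and Uqcrfs1 (0.0614) were no longer called.

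At 6 h 0 of 87 probe sets were called on the second type (limma), and 0 had an unadjusted p under 0.05, beside 2.35% of all probe sets called. The median difference there was -0.07, with -0.02 for all probe sets. Libraries of the same time and number on the array types may come from the same RNA, which the labels do not say, so the types are given as separate measurements.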

How the data were processed

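The authors deposited intensities on a linear scale for each probe set, scaled per array; the deposited values themselves give a mean near 150.0 after the lowest and highest 2% are left out. Which algorithm summarised the probes is not stated there. Gene symbols were those of GEO's annotation, brought up to date by gene identifier in RefSeq's GRCr8 table (12748 probe sets by identifier, 2 by accession, 33 kept as given; 312 with several symbols and 2771 with none listed were not named).

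Values were taken as log2(intensity + 7.55) on the main type and log2(intensity + 3.54) on the second, the 10th percentile of each table, which understates changes of dim probe sets. Probe sets under the 40th percentile of mean level were left out. Arrays a and b of 5 h replicate 1 were averaged. limma 3.58.1 in R 4.3.3 (empirical Bayes with trend) was fitted to 9520 and 5244 probe sets, each array type apart, with all times in 1 fit, and was tested on simulated data. Windows are unweighted means of their times. Libraries of 1 time correlated with r from 0.921 to 0.974 on the main type. Alternatives were 4 times the pseudocount, no filter, quantile normalization, median centring, a replicate block, array weights, the contrast fitted alone, leaving out letter b and c arrays, libraries that stand apart or each library in turn, and, chosen after the data were seen, array b alone, leaving out 72 h replicates 2 and 3, the contrast fitted alone between the windows, and leaving out libraries for single times.

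The members, the lists of other genes and the tests were chosen with earlier results of these data known. Members were named mainly if called, if they had the highest level or the largest differences at 5 to 8 h in each complex, or from a fixed list of isoforms and core subunits. Ndufa7, with the most positive difference from 0 h at 5 to 8 h in complex I, was not described. Ndufb4, Ndufs1, Ndufv1, Uqcrc2, Atp5f1a and Cox7c, among others, were named outside these rules. Promoters shown were picked as stated. Precision is limited by how many arrays there are.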

Additional observations from a re-analysis of the deposited data

Results flagged for a closer look

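In 4 member probe sets 1 of the 4 libraries at 0 h lay far from the other 3, by Dixon's criterion (critical value 0.829) among 43 probe sets looked at for the main type and 52 for the second. Chance alone flags about 1 in 20 of the probe sets looked at, so these 4 are no more than chance can give. On the main type both were in replicate 1: Uqcr10 had 2614 there and 1893, 1897 and 1999 in the others, and Cox6c had 2936 against 2324, 2332 and 2335. On the second type both were in replicate 3: a probe set of Ndufs8 had 293.7 against 325.2, 329.1 and 329.4, and one of Cox6c had 30.61 against 25.44, 25.9 and 25.91.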

How the results depend on the processing

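Under 11 alternatives and without each library, the members' median difference kept its sign in each window of the main type, and the count of members called at 0.25 to 1, 12 to 18 and 30 to 72 h stayed at 0. Lower members at 2 to 4 h (0) became 3 with quantile normalization, 1 with the replicate block, 13 with array weights, 1 without the libraries that stand apart, 1 with array b alone and 3 with the contrast fitted alone, and lay between 0 and 2 without 1 library. At 5 to 8 h, array weights gave 1 higher member, quantile normalization 2 and the replicate block 1 lower, and leaving out a library gave 0 to 1 in either direction. Between 5 to 8 h and 30 to 72 h, the 1 higher member became 3 with array weights and 2 without the libraries that stand apart (1 to 2 without 1 library). The 23 lower became 2 without letter b and c arrays, 12 without the libraries that stand apart and 4 without 72 h replicates 2 and 3, and lay between 10 and 27 without 1 library. The F test's 2 became 1 with no filter, median centring, the replicate block, without letter b and c arrays or without the 72 h pair, 5 with quantile normalization or array b alone and 38 with array weights (1 to 5 without 1 library). The 4 calls at single times became 11 with quantile normalization, 25 with array weights, 8 with array b alone, 1 with median centring, no filter or without letter b and c arrays, and 2 without the libraries that stand apart or without the 72 h pair (1 to 10 without 1 library). All these counts stand here without the share of all probe sets called under the same setting.

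On the second type at 2 h, the 3 higher members became 5 with 4 times the pseudocount, 1 with no filter and 1 with the replicate block. The shares of all probe sets higher were 4.98%, 3.05% and 4.02%, from 4.82% in the main fit. The 2 lower became 1 with no filter, 4 with quantile normalization and 1 with array weights, beside shares of 2.75%, 4.56% and 4.42%, from 4.98%. Without 1 library each count lay between 0 and 6, beside shares of 2.69% to 5.45% higher and 1.75% to 8.66% lower. The median difference of 0.05 then lay between -0.0018 and 0.14. The cause of these shifts was not tested. The labels do not say that a replicate number marks a shared animal or batch. Deviations of same-numbered libraries correlated with a median of 0.057 (37.5% over 0.1, from -0.53 to 0.49) and those of other numbers with -0.025, and 29 of 52 libraries correlated best with their own number, a hint of pairing from the data and not the design; the samples were not treated as paired. The replicate block ended the calls at 5 h of Atp5f1d (adjusted p = 0.0879) and Uqcr10 (0.0516) and, on the second type at 2 h, of Cox4i1 (0.078), Ndufs8 (0.0639) and Atp5f1a (0.0594), all limma.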
